A study of Mus musculus with 10 samples.

Results

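Uchl1 and the other ubiquitin C-terminal hydrolases, Uchl3, Uchl5 and Bap1, were followed in the retinal pigment epithelium (RPE) of mice given the transcription factor Nrf2. These 4 genes were chosen by name as the members of their enzyme family, of 47729 genes in the count table, and Uchl1 stood at their head because its RNA was already known to be higher in the Nrf2 eyes of these mice. The values of Uchl1 in that contrast are therefore given as a description, without a test. RNA was sequenced from wild-type CD1 mice aged P40, with 1 library from each eye of 5 mice. One eye, the Nrf2 eye, had received AAV-Best1-Nrf2, which carries the human Nrf2 coding sequence, together with AAV-Best1-GFP. The other eye, the control eye, had received AAV-Best1-GFP alone. The adeno-associated virus (AAV) serves as a gene carrier, and the promoter of Best1 drives expression in RPE cells. The Nrf2 vector was packaged in an AAV8 capsid and the GFP vector in an AAV27M8 capsid. Both groups thus shared the GFP vector, and the Nrf2 eyes had an additional vector for which no eye was given an equal amount of another one. The retina was taken off and RNA was collected from the eyecup, so that RNA of retina left behind, of immune cells and of the tissue beneath the RPE could enter a library. In such bulk RNA, fewer cells of a type and less RNA per cell cannot be told apart.

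Ubiquitin is a small protein that is joined to other proteins to mark them, often for breakdown by the proteasome, and deubiquitinases take it off again. The ubiquitin C-terminal hydrolases are a small family of cysteine proteases among them. UCHL1 is among the most abundant proteins of neurons and neuroendocrine cells, where it keeps up the pool of free ubiquitin, and UCHL3 is its closest relative, able to act on NEDD8 as well as ubiquitin. UCHL5 trims ubiquitin chains at the proteasome and is also found with the INO80 chromatin remodelling complex. BAP1 is a nuclear tumour suppressor that takes ubiquitin off histone H2A. In the retina, UCHL1 is found chiefly in neurons, so that retina left on the eyecup is a source of Uchl1 RNA to be measured beside the effect of treatment.

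All 4 genes lie on the forward strand of the mm10 mouse genome. Uchl1 (ENSMUSG00000029223) spans chr5:66676091-66687234, Uchl3 (ENSMUSG00000022111) chr14:101653967-101696125, Uchl5 (ENSMUSG00000018189) chr1:143777272-143807466 and Bap1 (ENSMUSG00000021901) chr14:31251450-31259944. Nrf2 is known to bind DNA at antioxidant response elements, with the core TGACNNNGC, and TGANNNNGC is a looser spelling of it that includes every match of the first. The window from 250 bases before to 50 bases after the transcript start was searched for both on either strand, in the RefSeq promoter table of GRCm38.p6. The windows of Uchl1, the gene that differed between the eyes, and of Bap1, a relative that did not, are shown 5′ to 3′ on the forward strand, with the matches to TGANNNNGC or its reverse complement in capitals.
Uchl1, chr5:66675871-66676170: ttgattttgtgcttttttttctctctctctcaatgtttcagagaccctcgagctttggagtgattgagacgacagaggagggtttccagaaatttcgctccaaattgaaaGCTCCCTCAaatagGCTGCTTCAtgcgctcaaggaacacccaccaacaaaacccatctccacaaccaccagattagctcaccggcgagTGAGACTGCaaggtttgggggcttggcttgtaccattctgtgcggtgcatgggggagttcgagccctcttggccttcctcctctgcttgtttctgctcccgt
Bap1, chr14:31251239-31251538: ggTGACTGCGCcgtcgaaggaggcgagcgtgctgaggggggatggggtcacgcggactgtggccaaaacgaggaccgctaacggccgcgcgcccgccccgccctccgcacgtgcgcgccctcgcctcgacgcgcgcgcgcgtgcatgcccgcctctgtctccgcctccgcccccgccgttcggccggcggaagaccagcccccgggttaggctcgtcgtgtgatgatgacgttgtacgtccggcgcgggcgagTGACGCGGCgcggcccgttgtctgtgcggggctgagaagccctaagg
The Uchl1 window held 3 matches to TGANNNNGC and 0 to TGACNNNGC. Of these, 1 lay on the forward strand from -52 to -44 relative to the start, and 2 on the reverse strand from -140 to -132 and from -126 to -118. The Bap1 window held 2 matches, both of them to TGACNNNGC, the Uchl5 window 1 match to TGACNNNGC, and the Uchl3 window 0 to either spelling. Among 32841 promoter windows of the same length, 41.3% held TGANNNNGC and 12.4% held TGACNNNGC, so that matches of both kinds were common, and the member with the large difference had no match to the stricter spelling while a pair of members with small differences did. In base composition the Uchl1 window, with 50.7% G and C and 9 CG pairs, was close to the median window (52.7% and 7), while those of Uchl3 (60.0% and 27), Uchl5 (73.3% and 36) and Bap1 (73.7% and 50) were richer in both.

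The libraries held between 12298404 and 27310638 counts, and levels are given as CPM, the counts scaled to a library total of 1000000. RPE marker genes were abundant in every library, with a summed level over 8 genes of at least 10116 CPM. Both eyes of mouse 2 stood apart by their retinal RNA: the summed level of 10 rod genes was 19762 CPM in its control eye and 7586 CPM in its Nrf2 eye, whereas the next highest values were 2901 CPM among control eyes and 332 CPM among Nrf2 eyes. The main results on neuronal RNA are therefore given with and without mouse 2. Nfe2l2, the mouse gene of Nrf2, to which reads of the human sequence may also have been assigned, measured 81.7, 80.8, 91.9, 79.3 and 110 CPM in the control eyes and 267, 352, 414, 371 and 360 CPM in the Nrf2 eyes of mice 1 to 5, higher in the Nrf2 eye of each mouse. The 10 known NRF2 target genes, which stand in here for the action of the vector, summed to between 1060 and 1265 CPM in the control eyes and between 7891 and 9150 CPM in the Nrf2 eyes.

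Uchl1 was low in every control eye and high in every Nrf2 eye. In the control eyes of mice 1 to 5 its level was 0.459, 19.7, 0.489, 3.05 and 1.54 CPM. In the Nrf2 eyes of the same mice it was 66.1, 117, 56.9, 84.2 and 74.5 CPM. The groups did not overlap, since the lowest Nrf2 eye, that of mouse 3, held 2.89 times the level of the highest control eye, that of mouse 2. Such a separation with higher Nrf2 eyes was shared by 3.87% of the 16362 genes tested. The control values rested on few reads in most mice, with 9, 319, 7, 51 and 42 counts in mice 1 to 5, whereas the Nrf2 eyes held from 1035 to 2883 counts. The exact 95% binomial intervals, which cover counting error only, ran from 0.210 to 0.871 CPM in the control eye of mouse 1 and from 62.7 to 69.6 CPM in its Nrf2 eye.

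The mean of Uchl1 was 5.04 ± 8.24 CPM in the control eyes and 79.8 ± 23.2 CPM in the Nrf2 eyes (SD, n = 5 each). The log2 fold change of the paired fit was 5.09, with a standard error of 0.79 over the 5 within-mouse differences. The fold within a mouse ranged widely, from 5.97 in mouse 2 to 144 in mouse 1, as the control levels differed far more than the Nrf2 levels. On the linear scale the gain was far more even, with a mean difference of 74.7 ± 15.7 CPM (SD, n = 5) and a coefficient of variation of 21%. Without mouse 2 the means were 1.38 ± 1.22 CPM in the control eyes and 70.4 ± 11.6 CPM in the Nrf2 eyes (SD, n = 4), and the log2 fold change was 5.91. Uchl1 was 1 of 589 genes called higher in the Nrf2 eyes, 3.6% of those tested, and its rise was the 36th in size, between Csf3r, the receptor of granulocyte colony-stimulating factor, at 5.09 and the aldehyde oxidase gene Aox1 at 5.00. These ranks describe the contrast on which Uchl1 was chosen and add nothing to it.

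The other 3 family members were present at steady levels and none passed the test. Uchl3 measured 29.8, 33.4, 29.96, 25.8 and 40.4 CPM in the control eyes of mice 1 to 5 and 36.5, 35.1, 29.3, 31.0 and 43.3 CPM in the Nrf2 eyes. Its groups overlapped over most of their range, with a log2 fold change of 0.12 ± 0.07 (SE, n = 5 mice) and an adjusted p of 0.611 in edgeR's quasi-likelihood test with Benjamini-Hochberg adjustment over all genes tested. Uchl5 measured 30.6, 33.9, 30.8, 29.7 and 35.6 CPM in the control eyes and 30.6, 32.7, 26.5, 30.0 and 39.2 CPM in the Nrf2 eyes. It was higher in the Nrf2 eye of 3 mice and lower in 2, with a log2 fold change of -0.04 ± 0.05 (SE) and an adjusted p of 0.895 in the same edgeR test. Bap1 measured 111, 116, 96.5, 99.1 and 86.0 CPM in the control eyes and 83.5, 96.2, 95.7, 98.6 and 94.7 CPM in the Nrf2 eyes. It was lower in the Nrf2 eye of 4 of 5 mice, with a log2 fold change of -0.13 ± 0.08 (SE) and an adjusted p of 0.572 in the same test. Over all genes tested, 6.33% were called in either direction. Across the 10 libraries the highest level exceeded the lowest 255-fold for Uchl1, 1.68-fold for Uchl3, 1.47-fold for Uchl5 and 1.38-fold for Bap1.

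**Figure D1:**
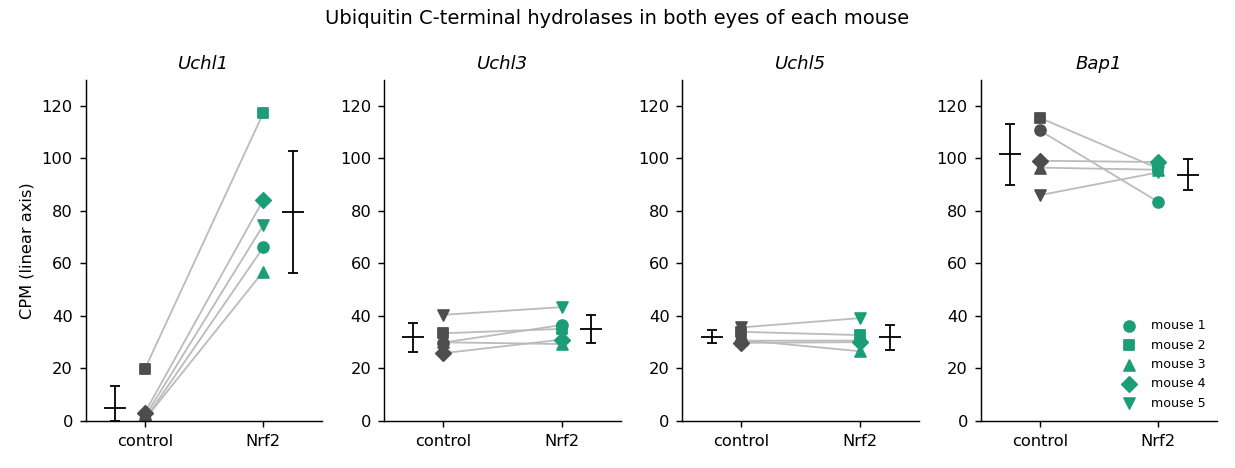
CPM of each ubiquitin C-terminal hydrolase gene (linear axis from 0) in the control eye (grey) and the Nrf2 eye (green) of 5 mice, with a line joining the eyes of a mouse and bars giving the mean ± SD, the lower bar of Uchl1 in control eyes stopping at 0. Uchl1 lies at 19.7 CPM or less in control eyes and at 56.9 CPM or more in Nrf2 eyes, while the values of the other 3 genes overlap.

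The order of the family members differed between the groups. Per kb of exon length, which allows levels of different genes to be set side by side, Uchl1 had a mean of 3.09 ± 5.05 CPM per kb in control eyes and was the lowest member, behind Uchl3 at 8.32 ± 1.43, Uchl5 at 11.001 ± 0.865 and Bap1 at 21.7 ± 2.51 (SD, n = 5). In Nrf2 eyes it was the highest, at 48.9 ± 14.2 CPM per kb, ahead of Bap1 at 20.02 ± 1.26, Uchl5 at 10.9 ± 1.60 and Uchl3 at 9.15 ± 1.43. Uchl5 lay above Uchl3 in all 10 libraries, and the place of Uchl1 at the bottom was broken in the control eye of mouse 2, where its 12.04 CPM per kb exceeded the 11.6 of Uchl5 and the 8.72 of Uchl3. As the mean of the shares in single libraries, Uchl1 made up 5.89% of the family's summed level per kb in control eyes and 54.2% in Nrf2 eyes. Without mouse 2, whose control eye had a share of 21.1%, the means were 2.09% and 51.8%. The 92 genes listed as deubiquitinases were taken by family and include complex subunits, such as Cops6 and Psmd7, not known to act as deubiquitinases themselves. Among these 92 genes, the mean level per kb of Uchl1 ranked 66th in control eyes and 3rd in Nrf2 eyes, below Cops6 and Psmd7. In Nrf2 eyes it fell between the subunit genes Psmd7 of the proteasome lid at 50.4 and Eif3h of a translation initiation factor at 46.7 CPM per kb. In single libraries its rank ran from 31 to 86 in control eyes and from 1 to 5 in Nrf2 eyes, so the sets of ranks did not meet.

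The difference of Uchl1 was not shared by the other genes listed as deubiquitinases. Of 88 such genes, 83 had enough counts to be tested and 0 were called by edgeR's quasi-likelihood test at an adjusted p of 0.05, against 6.33% of all genes tested. At an unadjusted p under 0.05 there were 6, which is 7.23%, beside 19.1% of all genes, and DESeq2 called 1 of the 84 it gave an adjusted p, where it called 9.25% of all genes. Their log2 fold changes had a median of -0.02, against -0.01 over all genes tested, and 79 of the 83 lay within 0.5 of 0. The gene that DESeq2 called was Otud1, an OTU family deubiquitinase, singled out here after its values were seen. It measured 36.9, 36.1, 36.3, 35.7 and 42.4 CPM in the control eyes and 23.7, 22.6, 30.7, 31.1 and 26.2 CPM in the Nrf2 eyes, a separation with lower Nrf2 eyes that 2.41% of all genes tested showed. Its log2 fold change was -0.51 ± 0.11 (SE, n = 5 mice), with an adjusted p of 0.0555 by edgeR and 0.0150 by DESeq2. The largest fitted fall, likewise named after its value was seen, was that of Usp13 at -1.004 with an adjusted p of 0.172 by edgeR, at means of 4.03 and 2.27 CPM. The most abundant genes by mean CPM of each deubiquitinase class were close to level between the eyes: Usp19 of the USP class at 147 and 136 CPM, Otub1 of the OTU class at 91.8 and 89.0 CPM, and the COP9 signalosome gene Cops6 among the remaining ones at 142 and 140 CPM in control and Nrf2 eyes.

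**Figure D2:**
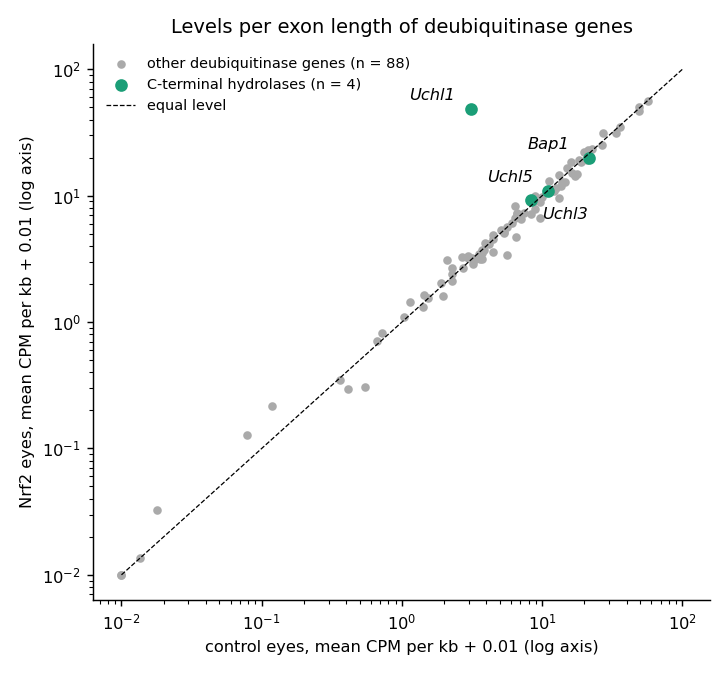
Mean level of 92 genes listed as deubiquitinases in the 5 control eyes (horizontal) and the 5 Nrf2 eyes (vertical), as CPM per kb of exon plus 0.01 on log axes. The ubiquitin C-terminal hydrolases are in green and the other 88 genes in grey. Uchl1 lies far above the dashed line of equal levels, at 3.09 and 48.9 CPM per kb, while Uchl3, Uchl5 and Bap1 lie close to it among the other genes.

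Genes that work with the family were called about as rarely as genes at large. Of the 13 partner genes of UCHL5, which encode its proteasome receptor and subunits of INO80, 13 were tested and 0 were called by edgeR, with 2 at an unadjusted p under 0.05 and 0 called by DESeq2. The most abundant, Adrm1, which encodes that receptor, measured 134 ± 7.08 CPM in control eyes and 130 ± 9.35 CPM in Nrf2 eyes (SD, n = 5). At that unadjusted threshold both this list and the next lay near the 19.1% of all genes. Of 10 genes that supply or activate ubiquitin and NEDD8, 10 were tested and 0 were called by edgeR, with 2 at an unadjusted p under 0.05 and 0 called by DESeq2. Of 11 partner genes of BAP1, 10 were tested and 1 was called, a share that a list this short cannot set apart from the 6.33% of all genes. It was Ube2o, which encodes an enzyme that conjugates ubiquitin to BAP1 and many other proteins. Ube2o measured 20.7, 33.3, 21.1, 30.5 and 23.8 CPM in the control eyes and 32.01, 46.9, 37.5, 42.2 and 40.1 CPM in the Nrf2 eyes of the same mice. The groups overlapped, since the control eye of mouse 2 lay above the Nrf2 eye of mouse 1, but the Nrf2 eye was higher in 5 of 5 mice, with a log2 fold change of 0.62 ± 0.08 (SE) and an adjusted p of 0.0153 in edgeR's quasi-likelihood test. The call was not made when mouse 5 was left out. Ogt, the most abundant BAP1 partner, which encodes the enzyme that attaches O-GlcNAc, measured 110 ± 12.2 CPM and 112 ± 22.2 CPM.

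The control eyes were then used to ask how Uchl1 went with retinal RNA when no Nrf2 vector was present. The 10 genes used by neurons in general, which include the synaptic gene Snap25 and none of the hydrolases, were summed as a measure of neuronal RNA. In the control eyes of mice 1 to 5 the sum was 39.0, 807, 33.1, 126 and 46.5 CPM. The control eye of mouse 2 held 6.42 times the neuronal RNA of the next control eye and 6.45 times its Uchl1. Per 100 CPM of neuronal RNA, Uchl1 measured 1.18, 2.44, 1.48, 2.42 and 3.30 CPM in mice 1 to 5, a range far narrower than that of Uchl1 itself. Thus the mice whose control eyes carried more neuronal RNA, mouse 2 and then mouse 4, were also those with the most Uchl1. The summed rod genes ordered the control eyes as Uchl1 did, at 37.8, 19762, 210, 2901 and 426 CPM.

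In the Nrf2 eyes Uchl1 did not keep to that proportion. The neuronal sum was 18.8, 816, 31.6, 34.6 and 44.9 CPM in mice 1 to 5, and Uchl1 per 100 CPM of it was 352, 14.4, 180, 244 and 166 CPM. The lowest of these ratios, that of mouse 2, was 4.35 times the highest in any control eye. Since Uchl1 was chosen for its higher level in these Nrf2 eyes, this separation of the ratios follows largely from that choice. It is given as a description. Within mice, the log2 ratio was higher in the Nrf2 eye by 8.23, 2.56, 6.93, 6.65 and 5.65, with a median of 6.65, or 6.79 without mouse 2. The Nrf2 eye of mouse 2 held 18.2 times the neuronal RNA of the Nrf2 eye next in that sum, that of mouse 5, and 1.39 times the Uchl1 of the eye next in Uchl1, that of mouse 4. In mouse 2 the neuronal sum of the Nrf2 eye was 1.01 times that of its control eye, while Uchl1 was 5.97 times as high. The eyes of mouse 2 were also near each other in the bipolar (0.890), amacrine and horizontal (1.11) and neuroendocrine (0.952) sums, given as Nrf2 over control, but not in every sum, since the Nrf2 eye held 0.384 times the rod sum, 0.237 times the cone sum, 1.39 times the ganglion cell sum and 1.97 times the sum of peripheral nerve and autonomic neuron genes. At the proportion of its control eye, 19.9 CPM of Uchl1 would go with the neuronal RNA of the Nrf2 eye of mouse 2, where 117 CPM were measured, and at most 1.09 CPM with that of any other Nrf2 eye, where at least 56.9 CPM were measured. Reckoned in the same way from the ganglion, amacrine and horizontal, and bipolar cell sums and from that of Mueller glia, whose levels differed less between eyes, the highest value in another Nrf2 eye would be 12.3, 19.9, 29.1 and 27.4 CPM, and from the sum of peripheral nerve and autonomic neuron genes 28.1 CPM. From the sums of other cell types this highest value would be 2.99 CPM for neuroendocrine cells, 14.6 CPM for endothelium and 24.0 CPM for the RPE. It would be 52.5 CPM for Schwann cells, 54.5 CPM for fibroblasts, 151 CPM for microglia and 245 CPM for muscle. Only the values for microglia and muscle exceeded the Uchl1 of every Nrf2 eye. In the Nrf2 eye of mouse 2, where 117 CPM were measured, they would be 29.8 and 5.85 CPM. The muscle sum itself was 3.73 CPM in the Nrf2 eye of mouse 1, where Uchl1 measured 66.1 CPM. Against the rod sum, Uchl1 per 100 CPM was 0.0995 to 1.21 CPM in control eyes and 1.55 to 133 CPM in Nrf2 eyes, with 1.27-fold between the highest control eye, that of mouse 1, and the lowest Nrf2 eye, that of mouse 2.

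**Figure D3:**
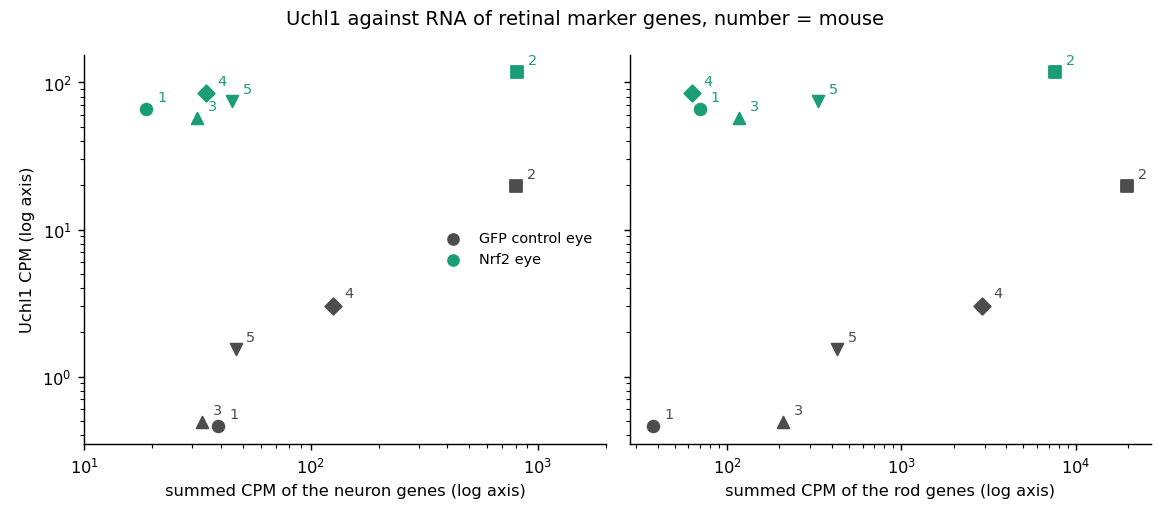
Uchl1 CPM against the summed CPM of 10 neuron genes (left) and 10 rod genes (right) in each of the 10 libraries, all on log axes, with control eyes in grey, Nrf2 eyes in green and the mouse number beside each point. The control eyes rise along the retinal RNA from 0.459 to 19.7 CPM of Uchl1, whereas the Nrf2 eyes lie between 56.9 and 117 CPM across the range of neuronal RNA from 18.8 to 816 CPM.

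The summed retinal lists differed in direction between the eyes, and with 5 pairs none of them could reach an exact p under 0.0625. The neuronal sum was lower in the Nrf2 eye of 4 of 5 mice, with a mean log2 difference of -0.59 ± 0.82 (SD, n = 5 mice) and an exact paired permutation p of 0.125, two-sided. The rod sum was also lower in 4 of 5 mice, by -1.44 ± 2.42 with an exact permutation p of 0.25, and the cone sum in 5 of 5, by -1.03 ± 1.20 with an exact permutation p of 0.0625. Without mouse 2 these differences were -0.74, -1.46 and -0.77, and without mouse 4 they were -0.28, -0.43 and -0.65. The p of the cone sum is the smallest that 5 pairs can give, and over the 15 marker lists tested it became 0.3125 after Benjamini-Hochberg adjustment. The sums of bipolar cell genes (0.26), amacrine and horizontal cell genes (0.11) and ganglion cell genes (0.69) had positive mean log2 differences, with exact permutation p of 0.5, 0.4375 and 0.125. Single genes made up 92.0% of the bipolar sum (Trpm1) and 86.6% of the amacrine sum (Slc6a9), so that these reflect little of the cell type as a whole. In the ganglion sum 47.4% was Rbpms, and without that gene its mean log2 difference was 1.99, with an exact permutation p of 0.0625. In edgeR's quasi-likelihood test 0 of 9 rod genes, 0 of 7 cone genes and 0 of 8 genes of neurons in general were called, with 0, 3 and 2 at an unadjusted p under 0.05 and 0, 1 and 2 called by DESeq2, where 6.33%, 19.1% and 9.25% of all genes were called by these 3 rules. The 2 neuron genes that DESeq2 called went opposite ways and are named after their values were seen. Tubb3 was higher in the Nrf2 eye of 5 of 5 mice, with a log2 fold change of 1.46 and an adjusted p of 0.149 by edgeR and 0.0317 by DESeq2. Syt1 was lower in 4 of 5, at -0.97 with an adjusted p of 0.225 by edgeR and 0.0468 by DESeq2. Of 4 ganglion cell genes tested 1 was called higher, and it was Nefm. With the rod genes as a covariate beside the mouse the log2 fold change of Uchl1 was 5.51, and with the neuron genes it was 4.97.

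Genes of peripheral nerve and autonomic neurons, another kind of cell rich in UCHL1, were in part higher in the Nrf2 eyes. Of 9 such genes 4 were tested and 2 were called higher, against 3.6% of all genes tested. Their summed level was 7.65, 52.0, 8.87, 13.8 and 36.4 CPM in the control eyes and 36.3, 102, 21.02, 74.2 and 30.1 CPM in the Nrf2 eyes of mice 1 to 5. The sum was higher in the Nrf2 eye of 4 of 5 mice, with a mean log2 difference of 1.26 ± 1.04 (SD, n = 5 mice) and an exact permutation p of 0.125. The genes called were Nefh, the most abundant of the list, and Th, the rate-limiting enzyme of catecholamine synthesis, named after its value was seen. Th measured at most 1.73 CPM in control eyes and at least 2.22 CPM in Nrf2 eyes, with a log2 fold change of 4.28 ± 0.76 (SE, n = 5 mice) and an adjusted p of 0.0359 in edgeR's quasi-likelihood test. The noradrenergic gene Dbh was 1 of 2 genes of the list with no count in any library, and Npy, which was tested, had a log2 fold change of 0.12. Nefh and Th are not confined to such neurons. Of 7 genes of Schwann cells, the glia of peripheral nerve, 6 were tested, with Cdh19 called higher at a log2 fold change of 2.89 and Sox10 called lower at -1.74, both named after their values were seen. The Schwann cell sum was lower in the Nrf2 eye of 3 of 5 mice. The part of such neurons and glia in the level of Uchl1 was not tested.

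RNA of immune cells also moved with the Nrf2 eyes. Of 8 microglia genes 7 were called higher, against 3.6% of all genes tested, with a median log2 fold change of 4.85 over the 8. Their summed level was 238, 171, 251, 270 and 145 CPM in the control eyes and 611, 259, 528, 756 and 1316 CPM in the Nrf2 eyes of mice 1 to 5. Csf1r, the most abundant of the list, made up most of the sum in control eyes and was the gene not called higher, with a log2 fold change of -0.57 and an adjusted p of 0.301 in edgeR's quasi-likelihood test. Without it the 7 genes that rose summed to 9.59 to 27.4 CPM in control eyes and 198 to 1094 CPM in Nrf2 eyes. Among the Nrf2 eyes mouse 2 had the lowest microglial RNA by either sum and the highest Uchl1. Without mouse 2 the order of both sums, mice 3, 1, 4 and 5 from low to high, was that of Uchl1 except that mice 4 and 5 changed places. With the mean log2 level of the microglia genes as a covariate the log2 fold change of Uchl1 was 1.11, but this covariate had a correlation of 0.97 with the treatment within mice and left 3 residual degrees of freedom, so immune cell RNA and the Nrf2 vector cannot be told apart by this fit. Of 8 RPE genes 5 were called lower in the Nrf2 eyes, against 2.73% of all genes tested, with sums of 21308 to 44465 CPM in control eyes and 10116 to 28118 CPM in Nrf2 eyes. The other 3, Ttr, Pmel and Best1, had log2 fold changes of 0.0024, 0.17 and 0.70 and were not called. The part of these immune and RPE shifts in the level of Uchl1 was not tested.

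The genes whose levels were most like those of Uchl1 over the 10 libraries were Mapk10, Nefm, Mmp9, Kcnab3, Slc10a4, the pseudogene Gm5526, Zfyve28 and the long noncoding RNA Pvt1, with Pearson's r of log2 CPM from 0.97 to 0.99. Because the groups lie apart, such values rest mainly on the difference between the eyes, and they are given as a measure of likeness only. With the group means taken out, so that only the spread among eyes of a group remained, the 8 most like were Zfyve28, Rbm7, Haus8, A730020E08Rik, Mapk10, F730043M19Rik, Heatr5a and Nefm, with r from 0.94 to 0.98. Mapk10, which encodes the JNK3 kinase of neurons, Nefm, which encodes the medium neurofilament subunit, and Zfyve28 were on both lists. Without mouse 2 their r with the group means taken out was 0.95, 0.76 and 0.96 over 8 libraries. On the same scale the 9 rod genes had r between 0.78 and 0.83 and the 8 neuron genes between 0.39 and 0.80, while the 10 NRF2 target genes ranged from -0.56 to 0.54 and the 8 microglia genes from -0.37 to 0.31. Without mouse 2 the rod genes had r between 0.73 and 0.84, the neuron genes between -0.23 and 0.84, and the NRF2 target genes between -0.58 and 0.51. When the groups were not centred the median r was 0.16 for the rod genes, 0.87 for the NRF2 target genes, 0.86 for the microglia genes and -0.83 for the RPE genes. Without mouse 2 these medians were -0.14, 0.96, 0.94 and -0.84. The 7 cone genes had a median r of 0.82 with the group means taken out, against 0.81 for the rod genes. Without mouse 2 these medians were 0.66 and 0.80, and the cone genes ranged from 0.24 to 0.90. Among the Nrf2 eyes outside mouse 2 the order of the rod sum was not that of Uchl1, since mouse 4 had the least rod RNA, at 63.2 CPM, and the most Uchl1, at 84.2 CPM. Among the control eyes the order of the rod sum was that of Uchl1. The cone sum departed from that order, with mouse 3 at 32.2 CPM above mouse 5 at 21.3 CPM. No r was taken within a single group. The step between the groups was shared by most microglia genes and most NRF2 target genes. Of those 10 targets 9 were called higher, with Me1 lowest at a log2 fold change of 0.26. Most RPE genes stepped the other way. These values cannot tell the lists apart. Uchl3, Uchl5 and Bap1 had r of 0.26, -0.08 and -0.39 with Uchl1 over the 10 libraries.

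Genes used by neurons differed in how far their levels went with those of Uchl1. Mapk10 and Nefm were taken up as the 2 genes most like Uchl1 over these libraries, so their likeness here follows from that choice. The neurofilament genes encode the subunits of the cytoskeletal filaments of axons. Nefl, Nefh and Snap25 were taken up beside Nefm after their values had been seen, and all of these are given without a test. Nefm measured 0.255, 14.8, 0.559, 1.08 and 1.39 CPM in the control eyes of mice 1 to 5 and 24.0, 56.4, 14.7, 32.3 and 39.1 CPM in the Nrf2 eyes. Nefh, the heavy subunit, measured 1.02, 20.5, 0.628, 2.39 and 1.24 CPM in the control eyes and 16.1, 70.1, 11.4, 28.1 and 19.1 CPM in the Nrf2 eyes. In both genes each Nrf2 eye lay above the control eye of its mouse, while the control eye of mouse 2 reached into the range of the Nrf2 eyes. Mapk10 measured 0.714, 9.06, 0.838, 3.58 and 1.54 CPM in the control eyes and 18.1, 45.7, 14.3, 29.8 and 26.2 CPM in the Nrf2 eyes, without overlap.

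Nefl, the light subunit on which the assembly of neurofilaments depends, was set chiefly by mouse 2. It measured 0.306, 109, 0.768, 7.23 and 4.36 CPM in the control eyes and 1.73, 129, 2.11, 4.39 and 4.74 CPM in the Nrf2 eyes. Snap25 had the same pattern, at 0.765, 316, 4.19, 39.95 and 14.7 CPM in the control eyes and 1.46, 343, 4.48, 1.54 and 16.1 CPM in the Nrf2 eyes. For both, the eyes of mouse 2 were far above all others in either group and the remaining values of the groups overlapped. Both were nonetheless higher in the Nrf2 eye of 4 of 5 mice, among them mice 1, 3 and 5, where the neuronal sum was lower in the Nrf2 eye. In the Nrf2 eyes outside mouse 2, Uchl1, Nefm, Nefh and Mapk10 were thus at 11.4 CPM or more while Nefl stayed at 4.74 CPM or less, and Snap25 at 16.1 CPM or less.

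**Figure D4:**
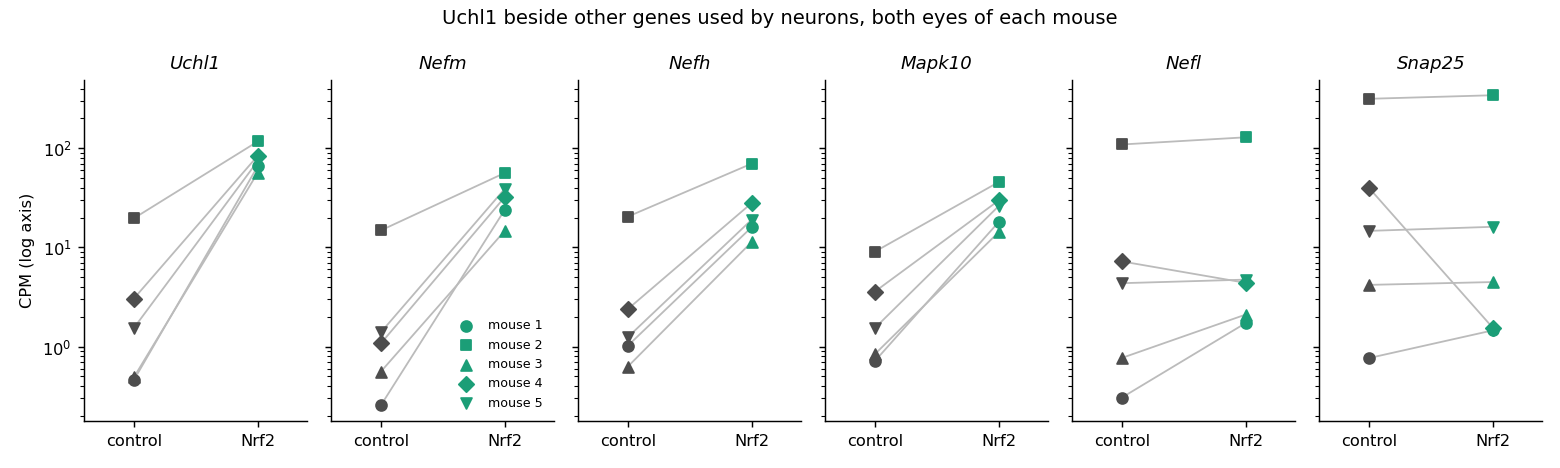
CPM of Uchl1, Nefm, Nefh, Mapk10, Nefl and Snap25 on a shared log axis in the control eye (grey) and Nrf2 eye (green) of each of 5 mice, with a line joining the eyes of a mouse. The lines of the first 4 genes all climb, as for Uchl1 from at most 19.7 to at least 56.9 CPM. Those of Nefl and Snap25 are flat or mixed and set apart by mouse 2, at 109 and 129 CPM for Nefl. Nefm and Mapk10 were chosen for their likeness to Uchl1, and Nefh, Nefl and Snap25 after their values were seen.

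None of the neighbours tested was called, a result that so short a list cannot set apart from the 6.33% of all genes. The coding genes nearest to Uchl1, Apbb2 and Limch1, were not called, with log2 fold changes of 0.28 (adjusted p 0.466) and -0.12 (adjusted p 0.776) in edgeR's quasi-likelihood test. The antisense gene Uchl1os overlaps Uchl1 by 408 bases and held 5 counts over all 10 libraries, all of them in Nrf2 eyes, too few to be tested. Since the strand setting of the counting is not given in the sources used here, reads of the pair cannot be told apart in that stretch. Beside Uchl3, Tbc1d4 came closest to the threshold, with 10.04 CPM in control eyes, 18.1 CPM in Nrf2 eyes, a log2 fold change of 0.89 and an adjusted p of 0.0569 in the same edgeR test. Uchl4, a close copy of Uchl3 in the mouse genome, held between 1 and 11 counts a library, and reads shared by this pair could have been lost or split, so that Uchl3 carries that uncertainty.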

How the data were processed

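The deposited values are raw counts per Ensembl gene, which the authors made from reads aligned to mm10, with no normalization. Their methods name STAR, featureCounts and Salmon 0.8.2, and which of these tables was deposited is not given in the sources used here. Symbols and exon lengths came from GENCODE M21 of the same build (47310 of 47729 identifiers, 99.12%). Counts were fitted with edgeR 4.0.16 (filterByExpr, TMM, quasi-likelihood test, the mouse as a block, Benjamini-Hochberg threshold 0.05), with DESeq2 1.42.0 among the alternatives, and the procedure was tested on simulated data. The eyes were paired by the animal number in the labels. Deviations from the group means correlated with r from 0.19 to 0.71 between eyes of a mouse. Between mice r ran from -0.42 to 0.28 with a median of -0.08, so the ranges overlapped. A count of 0 allows up to 3 counts, or 0.110 to 0.244 CPM. Sequencing took 2 runs and no run is named per library. Marker sums were compared by exact paired permutation of log2(CPM + 1). The members and all gene lists were chosen with earlier results of these data known. From partner, supply and deubiquitinase lists, called genes with the largest changes and the most abundant gene were named (that of the supply list is not reported here), and 8 genes by each measure of likeness. A fold change standard error is that of the within-mouse differences.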

Additional observations from a re-analysis of the deposited data

Results flagged for a closer look

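Within a group of 5 eyes, a value set apart from the rest by more than Dixon's limit occurred in 5 of the 38 groups checked, where chance gives about 1.9. Bap1 was lowest in the Nrf2 eye of mouse 1, at 6.40 on the log2(CPM + 1) scale with the next eye at 6.58. On the same scale, summed over the list, the Nrf2 eye of mouse 2 stood above the others in the genes of cones (6.90, next 4.79), of neurons in general (9.67, next 5.52) and of neuroendocrine cells (9.14, next 6.51), while its Uchl1 did not stand apart by this limit. Mouse 3 had the highest Schwann cell sum of the Nrf2 eyes (8.56, next 7.37).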

How the results depend on the processing

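Uchl1 kept its direction under all 13 alternatives and moved beyond the spread between mice only with the microglia covariate (log2 fold change 1.11). Otherwise it ran from 4.00 without the replicate block to 5.91. Leaving out a mouse gave 4.68 to 5.91. Uchl3 and Bap1 kept their direction and were called under none of 13 alternatives, and leaving out a mouse gave 0.10 to 0.22 and -0.17 to -0.04. Uchl5 changed sign without mouse 2 (0.0059) or mouse 3 (0.059), and leaving out a mouse gave -0.059 to 0.059. All genes called numbered 1036, and 1812 by DESeq2, 482 with the rod covariate, 0 with the microglia covariate by edgeR (1151 at an unadjusted p under 0.05) and 584 to 857 leaving out a mouse (584, 613 and 683 without mouse 2, 4 or 5). Without the replicate block 755 were called, 687 of them shared with the paired fit. Of other deubiquitinases, Otud1 made a count of 1 with DESeq2 and 1 without the replicate block, and 0 in every fit that left out a mouse. Among partner and supply genes Ube2o was lost with the microglia covariate and without mouse 5 (0 called), and leaving out a mouse gave 0 to 1. The amacrine and horizontal sum changed sign as the mean of log2(CPM + 1) (-0.064) and, an alternative added after seeing the data, without its most abundant gene (-0.070). The cause of these changes was not tested. The other 5 retinal and neuron sums kept their direction, though leaving out a mouse gave -2.02 to -0.43 for rods, -1.28 to -0.65 for cones, -0.74 to -0.28 for neurons, 0.02 to 0.57 for bipolar cells and 0.41 to 0.93 for ganglion cells (1.99 without Rbpms). Alternatives were not run for the remaining 9 marker sums. At 7 to 51 counts in 4 control eyes, depth limits the fold of Uchl1 more than its difference in CPM.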
